A study of Mus musculus with 18 samples.

Results

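The Myc and Myb proto-oncogene families were followed through RNA-seq of the prostate of TRAMP mice, a tumour model, by 8 genes: Myc, Mycn, Mycl, Max, Mxd1, Mxi1, Myb and Mybl1. They are the rows whose Ensembl gene ID maps to these symbols, 8 of the 55469 gene IDs in the authors' tables. The rule used no measured value, but the genes were chosen with earlier results of these data known. RNA was taken from the prostates (ventral and lateral lobes) of 18 males with the strain label C56NL/6N. Every mouse, controls included, was TRAMP+/-, which means that the Pb (probasin) promoter expressed SV40 T antigens in the epithelium of the prostate. WT-TRAMP mice had wild-type Elac2, the gene for a nuclease that trims the 3′ ends of precursor tRNAs. KO-TRAMP mice lacked Elac2 exon 8 where Pb-Cre was active, a deletion that the authors describe as prostate-specific. Cells without active Pb-Cre keep the gene. A537T-TRAMP mice were homozygous throughout the body for the Ala537Thr change, made by CRISPR. Groups of 3 mice were taken at the ages of 10 and 30 weeks. Libraries are named by the numbers in the tables. The 10-week groups are libraries 1 to 3 for WT-TRAMP, 4 to 6 for A537T-TRAMP and 7 to 9 for KO-TRAMP. The 30-week groups are libraries 10 to 12 for WT-TRAMP, 13 to 15 for A537T-TRAMP and 16 to 18 for KO-TRAMP. The comparisons ask how each Elac2 change alters these genes at each age.

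MYC, MYCN and MYCL are related transcription factors that bind DNA only as a pair with MAX, and they raise the expression of genes for ribosome production, nucleotide synthesis and cell division. MXD1 and MXI1 compete for the same partner and repress the same kind of gene. MYB and its relative MYBL1 form a separate family of DNA-binding proteins, with roles in progenitor cells and in germ cells. In the prostate, MYC is a frequently amplified oncogene, and MYCN is known for neuroendocrine tumours, a form that the TRAMP model also develops.

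None of the 8 genes passed an adjusted p of 0.05 in any comparison by limma, the main test. Myb in KO-TRAMP at 30 weeks was higher in every library than in every WT-TRAMP library, with a mean 3.12 times that of WT-TRAMP. In libraries 17 and 18 of that group Mycl lay above and Myc below every WT-TRAMP library. Library 16 lay outside the WT-TRAMP range on the opposite side, at 0.758 of the WT-TRAMP mean for Mycl and 1.04 for Myc. Mycn was almost absent at 10 weeks and was read mainly in 4 libraries at 30 weeks. For Max, Mxd1, Mxi1 and Mybl1 each line overlapped WT-TRAMP at both ages. Values are the authors' normalized counts, set separately in each of 4 tables of 6 libraries, and fold changes are differences of mean log2(normalized count + 1), given with a standard error (SE). The 3 WT-TRAMP libraries of an age stand in both tables of that age with different values, so the KO-TRAMP and A537T-TRAMP comparisons share their controls.

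In KO-TRAMP at 10 weeks 7 of the 8 genes could be tested and 0 passed by limma, edgeR or DESeq2, beside 0.0129% of all genes by limma. There 0 of 7 had a limma unadjusted p under 0.05, beside 6.64% of all genes tested. Of the 8 genes 1, Mycn, did not overlap between the groups and was higher, beside 12% of all genes tested (5.77% higher and 6.26% lower). The shares without overlap, here and below, are over the genes tested, and Mycn at 10 weeks was too low to be among them. In A537T-TRAMP at 10 weeks 0 of 7 passed by any of the 3 tools (0.00648% of all genes by limma), 0 had an unadjusted p under 0.05 (7.89%) and 0 of 8 were without overlap (13.4%, of which 6.92% higher and 6.53% lower). At 30 weeks all 8 were tested. In KO-TRAMP 0 passed by limma or edgeR and Myb passed by DESeq2, beside 0.213% of all genes by limma and 4.76% by DESeq2, and Myb alone had a limma unadjusted p under 0.05, beside 13.5%. Myb was also the 1 gene of 8 without overlap in that comparison, beside 20.2% of all genes (10.8% higher and 9.48% lower). In A537T-TRAMP 0 passed by limma or edgeR and Mycn passed by DESeq2, beside 0% of all genes by limma and 1.02% by DESeq2. Mycn alone had an unadjusted p under 0.05 (7.21% of all genes), and Myc alone was without overlap, on the lower side (13.4%, of which 7.36% higher and 6.03% lower). A single gene of 8 is a share near those of all genes at unadjusted p and for groups without overlap.

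The shallowest library held 9380174 recovered reads and the deepest 14830104. Normalized counts of the Elac2 transcript overlapped between each line and WT-TRAMP at both ages. Its log2 fold change was −0.22 and −0.19 in KO-TRAMP and −0.085 and 0.047 in A537T-TRAMP at 10 and 30 weeks, with adjusted p-values from 0.522 to 0.961 by limma. Whole-gene values do not resolve the deleted exon, so they do not check the labels. All 9 luminal secretory and all 5 basal epithelial markers were read in every library. Marker genes of the seminal vesicle, which is not part of the labelled tissue, summed to between 1.06 and 90420 RPM (reads scaled to the library's total). Library 5 held that highest sum and also the lowest luminal secretory sum, 1747 RPM against 12855 to 33761 in the other libraries at 10 weeks.

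To compare levels between genes, reads were divided by the length of the gene's exons and by depth (RPKM). On this scale Max was the most abundant member, with a median of 14.1 RPKM over the 18 libraries. Mycl and Myc followed with medians of 9.88 and 9.32 RPKM, and their ranges over libraries overlapped. Mxi1 had a median of 5.19, Myb 4.85, Mxd1 3.35 and Mybl1 2.00 RPKM. The lowest was Mycn with a median of 0.040 RPKM and a range from 0 to 1.67 RPKM. Among the 7 genes read in every library the fold range was widest for Myb, whose level ran from 0.862 RPKM in library 5 to 19.2 RPKM in library 17, a 22.3-fold range. Mycl ran over 10.1-fold, from 4.07 to 41.1 RPKM between the same 2 libraries, and Myc over 4.53-fold. In contrast, Max varied by 1.64-fold and Mxi1 by 1.54-fold.

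**Figure D1:**
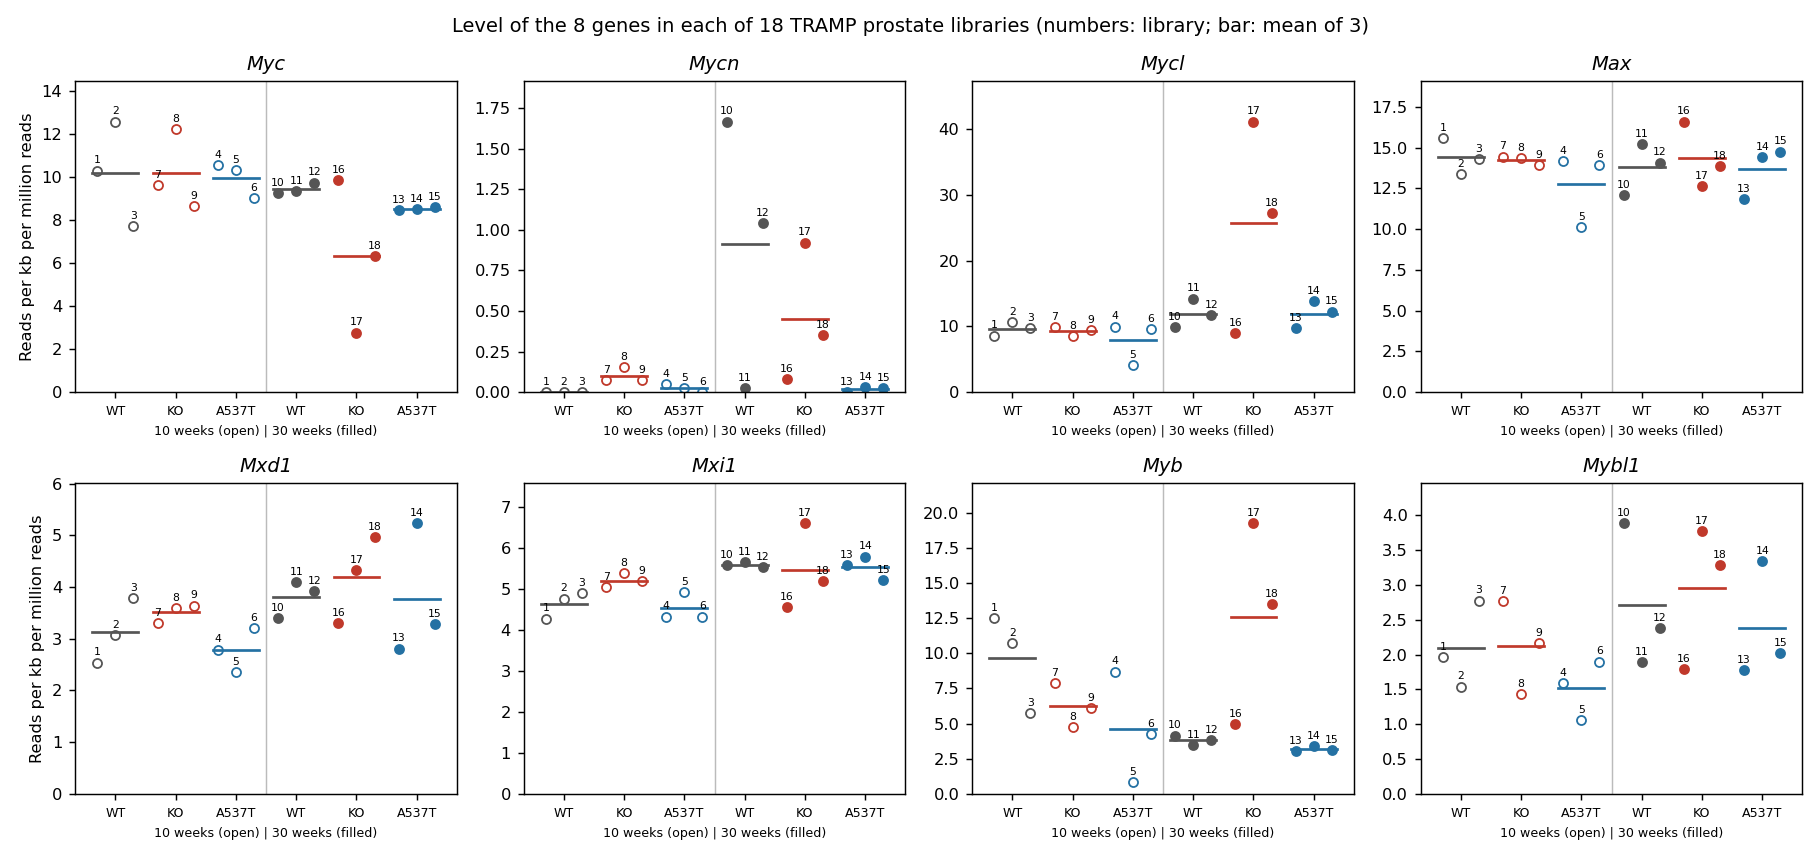
Level of each of the 8 genes in RPKM, reads scaled to exon length and depth (linear axis from 0), for WT-TRAMP, KO-TRAMP and A537T-TRAMP at 10 weeks (open points) and 30 weeks (filled points). Each point is 1 of 18 libraries with its number, bars are means of 3, and libraries 17 and 18 stand high for Myb and Mycl (19.2 and 41.1 RPKM in library 17) and low for Myc (2.78 RPKM in library 17).

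Myc (ENSMUSG00000022346.15, GRCm38 chromosome 15, 61985391 to 61990374, plus strand) encodes the founding member of the MYC proteins. At 10 weeks its normalized counts were 321, 401 and 247 in WT-TRAMP and 289, 379.0 and 259.9 in KO-TRAMP. In the other table of that age they were 297, 372 and 227 in WT-TRAMP and 296, 359 and 266 in A537T-TRAMP. Both lines lay inside the WT-TRAMP range, with log2 fold changes of −0.053 (SE 0.21) for KO-TRAMP and 0.057 (SE 0.22) for A537T-TRAMP. At 30 weeks WT-TRAMP libraries 10 to 12 had 288, 298 and 308 counts, while KO-TRAMP libraries 16, 17 and 18 had 309.7, 81.6 and 187. Thus library 16 sat just above the controls, library 17 at 0.277 and library 18 at 0.629 of the WT-TRAMP mean. The log2 fold change was −0.82 (SE 0.46, adjusted p 0.434), and it ran from −0.31 without library 17 to −1.26 without library 16. A537T-TRAMP at 30 weeks had 265, 265 and 258 counts against 279, 288 and 298, so the groups did not overlap, with A537T-TRAMP lower. That difference was small, 0.912 of the WT-TRAMP mean, with a log2 fold change of −0.13 (SE 0.10, adjusted p 0.803).

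Mycn (ENSMUSG00000037169.15, chromosome 12, 12936093 to 12941914, minus strand) encodes the MYC protein of the developing nervous system. At 10 weeks it had 0 reads in all 3 WT-TRAMP libraries, 3, 6 and 3 reads in KO-TRAMP and 2, 1 and 0 reads in A537T-TRAMP. KO-TRAMP therefore held 12 reads of 35917629 against 0 of 33142240. With 3 reads over the group taken as the limit that a count of 0 allows, its share was 3.69 times that limit. The counting error of the 12 reads is left out, so this is not a lower bound. The A537T-TRAMP reads were at that limit and no fold was computed. Both groups fell under the filter on low values, and the limit covers the counting error of the 0 only, not the spread between mice. Without the filter, limma gave a log2 fold change of 2.19 (adjusted p 0.695) for KO-TRAMP and 0.82 (adjusted p 0.692) for A537T-TRAMP. At 30 weeks Mycn had 62.7, 0.96 and 39.9 normalized counts in WT-TRAMP and 3.09, 32.8 and 12.5 in KO-TRAMP. These groups overlapped widely, with a log2 fold change of −0.48 (SE 1.5, adjusted p 0.878). In the A537T-TRAMP table WT-TRAMP had 62.2, 0.90 and 38.4 normalized counts and A537T-TRAMP 0, 1.19 and 0.997. The A537T-TRAMP libraries summed to 2 reads against 96, which is 1.96% of the WT-TRAMP share (exact 95% interval from 0.234% to 7.27%, counting error only). Yet library 11 of WT-TRAMP was as low as the A537T-TRAMP libraries, the groups overlapped, and the adjusted p was 0.691 (log2 fold change −3.36, SE 1.40). DESeq2 on recovered reads gave an adjusted p of 0.0394 for this difference. Over all alternatives for it the adjusted p ran from 0.0394 to 0.999, and it was 0.0425 without library 11. Of all genes 1.02% passed by DESeq2 and 0.889% without library 11.

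Mycl (ENSMUSG00000028654.13, chromosome 4, 122995652 to 123002485, plus strand) encodes the MYC protein first found in small cell lung cancer. Its normalized counts at 10 weeks were 399, 502 and 465 in WT-TRAMP and 439.6, 389.8 and 421 in KO-TRAMP. A537T-TRAMP at that age had 415, 210.0 and 418 counts against 359, 452 and 417, where the low value was library 5. The log2 fold changes were −0.12 (SE 0.12) for KO-TRAMP and −0.30 (SE 0.28) for A537T-TRAMP, and both lines overlapped their controls. At 30 weeks WT-TRAMP had 455, 676 and 548 counts and KO-TRAMP 419, 1796 and 1198 in libraries 16, 17 and 18. Libraries 17 and 18 lay above every control, at 3.25 and 2.17 times the WT-TRAMP mean, and library 16 lay below all of them. The log2 fold change was 0.80 (SE 0.53, adjusted p 0.476). Without library 17 it was 0.36. Without library 16 it was 1.41 with an adjusted p of 0.0227, in a fit where 18.1% of all genes passed, and over all alternatives the adjusted p ran from 0.0227 to 0.863. In A537T-TRAMP at 30 weeks Mycl had 454, 638 and 546 counts against 437, 644 and 523, a log2 fold change of 0.035 (SE 0.18).

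Max (ENSMUSG00000059436.13, chromosome 12, 76937269 to 76962201, minus strand) encodes the partner that every MYC and MXD protein needs to bind DNA. Its counts at 10 weeks lay between 564 and 642 in WT-TRAMP and between 555 and 589 in KO-TRAMP. At 30 weeks they lay between 497 and 643 in WT-TRAMP and between 492 and 690.4 in KO-TRAMP. The groups overlapped in all 4 comparisons, and the log2 fold changes lay between −0.075 and 0.037 with SEs of 0.10 to 0.17. Reads of the annotated transcript Gm47218, which overlaps Max on the same strand, could be split between both genes.

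**Figure D2:**
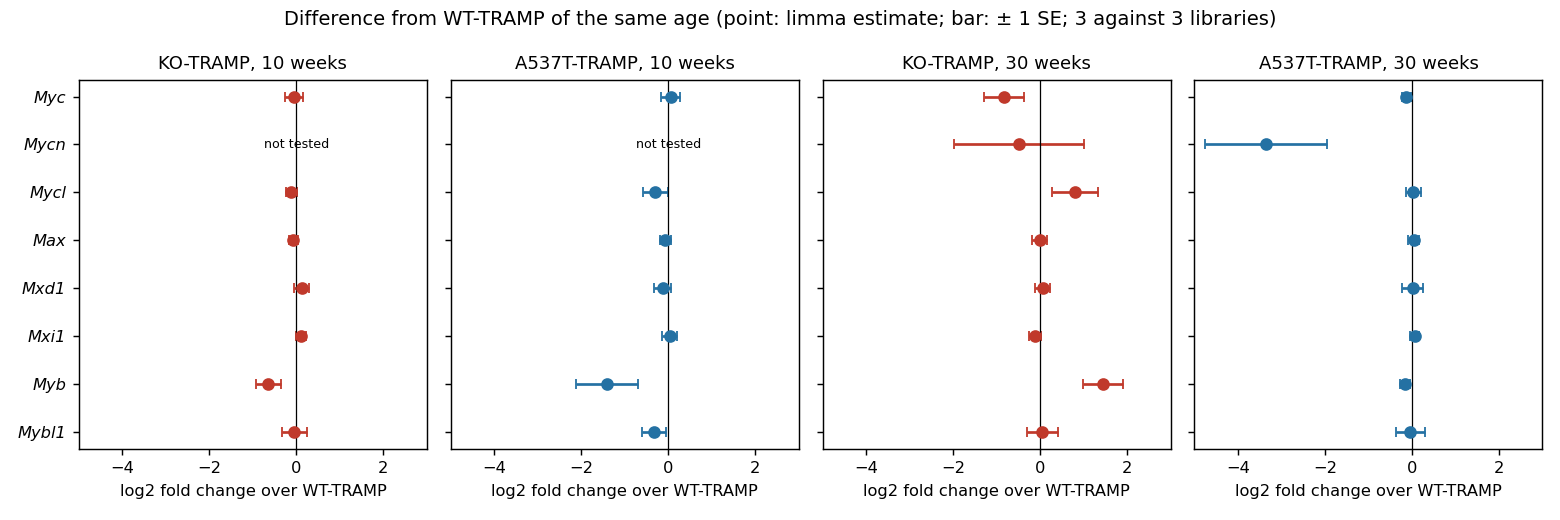
Log2 fold change of each gene over WT-TRAMP of the same age and table (x axis, point: limma estimate, bar: 1 SE to each side, 3 against 3 libraries), with 1 panel per comparison. Most points sit near 0, Myb stands at −1.41 in A537T-TRAMP at 10 weeks and at 1.45 in KO-TRAMP at 30 weeks, Mycn at −3.36 in A537T-TRAMP at 30 weeks has an SE of 1.40, and Mycn was not tested at 10 weeks.

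Mxd1 (ENSMUSG00000001156.9, chromosome 6, 86647042 to 86669161, minus strand) and Mxi1 (ENSMUSG00000025025.14, chromosome 19, 53310518 to 53375810, plus strand) encode the antagonists that take MAX away from MYC. Mxd1 had between 205 and 315 normalized counts in WT-TRAMP and between 257 and 289 in KO-TRAMP at 10 weeks. At 30 weeks its highest value was 423, in library 14 of A537T-TRAMP, beside 229 and 256 in the other two libraries of the group. Its log2 fold changes lay between −0.13 and 0.12 over the 4 comparisons. Mxi1 was the steadiest member among the WT-TRAMP libraries at 30 weeks, with 435, 453 and 439 counts, and its log2 fold changes lay between −0.12 and 0.10. No group of either gene stood apart from its controls, and Mxd1 shares a strand with the overlapping transcript Gm44292.

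Myb (ENSMUSG00000019982.15, chromosome 10, 21124935 to 21160984, minus strand) encodes a transcription factor of progenitor cells. At 10 weeks WT-TRAMP libraries 1 to 3 had 1277, 1119.8 and 606 normalized counts and KO-TRAMP libraries 7 to 9 had 774, 485 and 601. All but one of the KO-TRAMP values lay below the lowest control, and the highest lay between the controls. The log2 fold change was −0.65 (SE 0.29, limma unadjusted p 0.0537, adjusted p 0.742). A537T-TRAMP libraries 4 to 6 had 801, 98.4 and 410.5 counts against 1137, 998 and 537.3, a log2 fold change of −1.41 (SE 0.71, adjusted p 0.60). Library 5, the library with the most seminal vesicle reads and the fewest luminal secretory reads, was the lowest of the 18 libraries for Myb, and the log2 fold change was −0.56 without it. The 10-week groups also differed in the sums of marker genes. Seminal vesicle markers summed to between 1.76 and 4.59 RPM in WT-TRAMP, to between 8.98 and 16268 in KO-TRAMP and to between 487 and 90420 in A537T-TRAMP. The luminal secretory sum was 22683 to 30213 RPM in WT-TRAMP and 12855 to 14323 in KO-TRAMP, and smooth muscle markers summed to 383 to 629 RPM in WT-TRAMP and 714 to 1091 in KO-TRAMP. Of the 9 luminal secretory markers 3 had a log2 fold change above 0 in KO-TRAMP, with a median of −0.12 and a range from −1.33 to 2.12. The sums of all 3 lists separated the KO-TRAMP libraries from their controls, in a comparison where 12% of all genes tested were without overlap. Their part in the values of Myb at 10 weeks was not tested.

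At 30 weeks Myb had 423, 364 and 394 normalized counts in WT-TRAMP and 510.3, 1857 and 1312 in KO-TRAMP libraries 16, 17 and 18. Every KO-TRAMP value lay above every WT-TRAMP value, at 1.30, 4.72 and 3.33 times the WT-TRAMP mean, and the group mean was 3.12 times that of WT-TRAMP. By limma this is a log2 fold change of 1.45 (SE 0.46, unadjusted p 0.0187, adjusted p 0.332). DESeq2 on recovered reads gave 1.63 with an adjusted p of 0.0123, and limma without library 16 gave 1.99 with an adjusted p of 0.00702. By the same fits 4.76% and 18.1% of all genes passed. Without library 17 the value was 1.06. Over all alternatives the adjusted p for Myb in KO-TRAMP at 30 weeks ran from 0.00702 to 0.75. A537T-TRAMP at 30 weeks had 314, 345 and 304 counts against 389, 332 and 359.5, so that 2 of its 3 libraries lay below every control and the log2 fold change was −0.17 (SE 0.11, adjusted p 0.788). In RPKM the groups ranked from KO-TRAMP at 30 weeks (12.6 ± 7.19, SD, n = 3) through WT-TRAMP (9.65 ± 3.47), KO-TRAMP (6.24 ± 1.56) and A537T-TRAMP (4.60 ± 3.93) at 10 weeks to WT-TRAMP (3.81 ± 0.341) and A537T-TRAMP (3.17 ± 0.175) at 30 weeks. The first 5 overlap their neighbours in this order, levels of different ages come from tables normalized separately, and no test was run across ages on these levels.

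The stretch before the start of Myb is shown because Myb had the widest fold range of the 7 genes read in every library. These are the 250 bases upstream of its RefSeq start in GRCm38.p6, chr10:21160985-21161234, written 5′ to 3′ on the minus strand that Myb is read from, with matches to the GC box GGGCGG on either strand in capitals (overlapping matches run together).
Myb: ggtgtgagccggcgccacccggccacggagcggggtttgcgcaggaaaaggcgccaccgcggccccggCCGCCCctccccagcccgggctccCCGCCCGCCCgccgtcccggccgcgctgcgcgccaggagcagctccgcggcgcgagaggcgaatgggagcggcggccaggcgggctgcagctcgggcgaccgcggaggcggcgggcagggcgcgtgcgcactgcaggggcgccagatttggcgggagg
This window is 81.2% G and C and holds 3 matches to GGGCGG, a motif found in 32.7% of 32851 RefSeq promoter windows of the same length. It holds no match to CACGTG, the E-box that MYC and MAX bind, which was found in 6.02% of all windows. It also has no exact match to TTCCCGC, 1 form of the E2F motif (3.82% of windows), or to TAACNG, the MYB motif (19.8% of windows). Other forms of the E2F motif were not searched. The RefSeq table had entries for 6 of the 8 genes, and none of their windows held CACGTG, while that of Mycn held 1 match to TAACNG. A match describes letters only, and its absence says nothing about the factor.

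Mybl1 (ENSMUSG00000025912.16, chromosome 1, 9667415 to 9700209, minus strand) encodes a MYB protein best known from spermatocytes. Its normalized counts at 10 weeks were 121, 97.5 and 176 in WT-TRAMP and 165, 88.1 and 129 in KO-TRAMP. At 30 weeks they were 239.5, 120.0 and 149 in WT-TRAMP and 112, 220.1 and 193 in KO-TRAMP. The groups overlapped in all 4 comparisons, with log2 fold changes from −0.33 (SE 0.28, A537T-TRAMP at 10 weeks) to 0.051 (SE 0.36, KO-TRAMP at 30 weeks).

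The effects of a line at 30 and at 10 weeks were compared by an interaction over 12 libraries. For Myb in KO-TRAMP the effect at 30 weeks exceeded that at 10 weeks by 2.10 on the log2 scale (SE 0.59, limma unadjusted p 0.00441, adjusted p 0.258), with a mean below WT-TRAMP at 10 weeks and above it at 30 weeks. It passed by DESeq2 (2.33, adjusted p 0.00734), as did 2.37% of all genes, and by limma without library 16 (2.63, adjusted p 0.00549), as did 11.8% of all genes, and its adjusted p over the alternatives ran from 0.00549 to 0.523. Mycl had a KO-TRAMP difference of 0.93 (SE 0.57, adjusted p 0.483), which was 1.53 without library 16 (adjusted p 0.00961, with a range over the alternatives from 0.00961 to 0.769) and 0.48 without library 17. Mycn had −2.68 (SE 1.74, adjusted p 0.508) there. In A537T-TRAMP the difference for Myb was 1.24 (SE 0.81, adjusted p 0.723), or 0.40 without library 5, and Mycn was under the filter. By limma and edgeR 0 of the members passed in either interaction, beside 0% of all genes by limma in both, and 1 of 8 in KO-TRAMP and 0 of 7 in A537T-TRAMP had an unadjusted p under 0.05, beside 13.1% and 6.36% of all genes. Among the listed genes described further on, the KO-TRAMP difference was 1.19 for Ldha, 1.27 for Utp20, a ribosome assembly factor, 0.90 for Mat2a, −0.94 for Bcl2 and −0.59 for Usp28, with adjusted p-values from 0.232 to 0.343. The A537T-TRAMP difference was 0.74 for Nme1, −1.12 for Cdkn1a and −2.82 for Kit (each adjusted p 0.721).

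**Figure D3:**
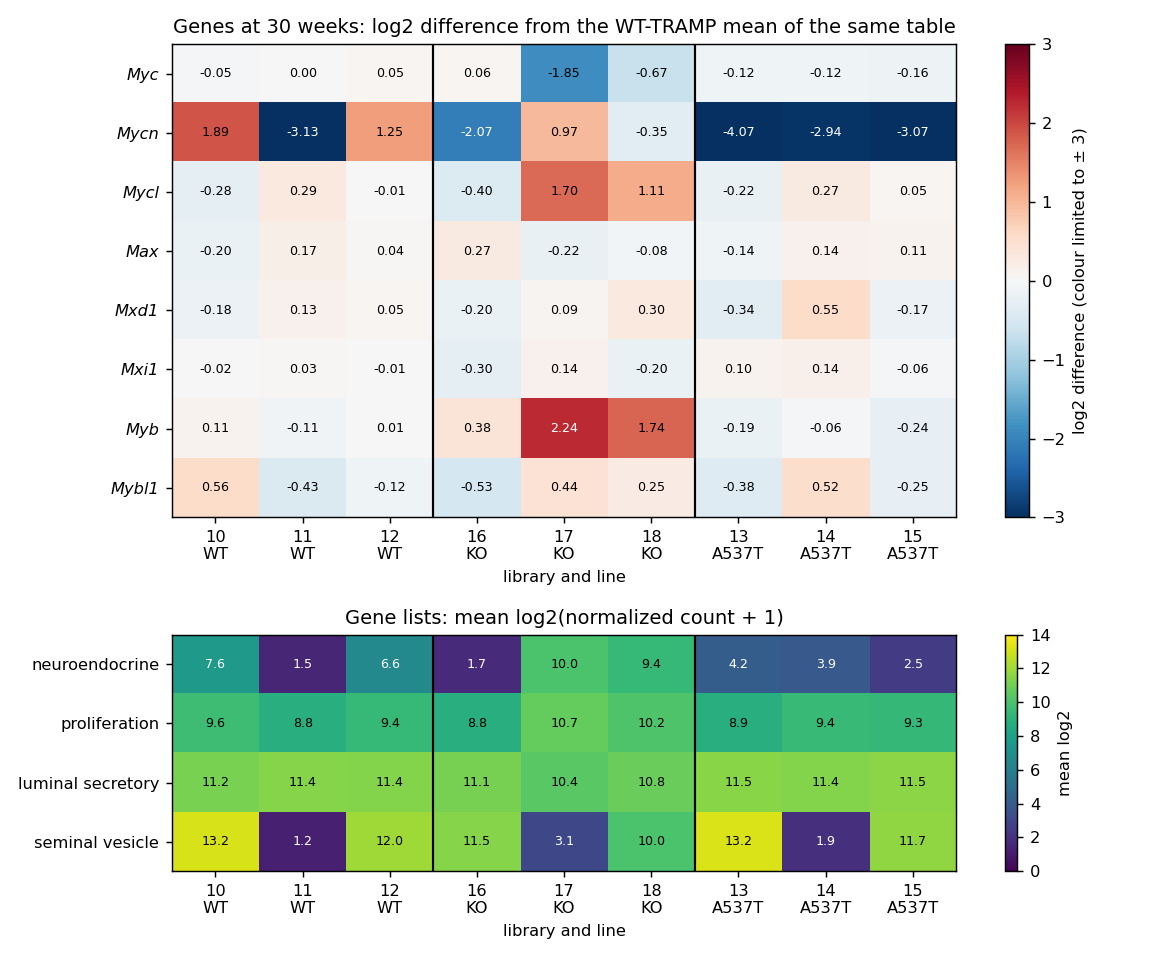
Top: log2 difference of each gene in each 30-week library from the WT-TRAMP mean of its table (red higher, blue lower). Bottom: mean log2(normalized count + 1) of 4 gene lists in the same libraries, with the neuroendocrine list at 10.0 and 9.4 in libraries 17 and 18, where Myb is 2.24 and 1.74 and Mycl 1.70 and 1.11 above the WT-TRAMP mean and Myc 1.85 and 0.67 below it.

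Other gene lists also differed between the 30-week libraries. In the KO-TRAMP table the correlation with the mean of a neuroendocrine list was 0.72 for Myb, 0.66 for Mycl and −0.69 for Myc, over 6 libraries. In the A537T-TRAMP table it was 0.80 for Myb, −0.69 for Mycl and 0.35 for Myc. A list of 10 neuroendocrine markers summed to 1643 and 1038 RPM in libraries 17 and 18, against 28.6 in library 16 of the same group. In WT-TRAMP it summed to 319 and 162 in libraries 10 and 12 and to 28.8 in library 11, and in A537T-TRAMP to between 56.3 and 70.8. Of its 10 genes 9 had a log2 fold change above 0 in KO-TRAMP and 1 in A537T-TRAMP, beside 50.9% and 50% of all genes tested. Chga, the secretory granule protein that defines neuroendocrine cells, had 6426 and 4005 normalized counts in libraries 17 and 18, 231 and 119 in libraries 10 and 12, 1.03 in library 16, 0 in library 11 and 2.99 to 9.54 in A537T-TRAMP. The 4 libraries with the most Mycn at 30 weeks were the 4 with the most Chga, which was named after its values were seen. The order differed: Mycn was highest in library 10 and Chga in library 17. A list of 15 proliferation genes summed to 3746 and 2675 RPM in libraries 17 and 18, against 1258 in library 16 and 1281 to 1857 in WT-TRAMP. All 7 macrophage markers had log2 fold changes above 0 in KO-TRAMP at 30 weeks, beside 50.9% of all genes tested. Their group sums were 240.5 to 271 RPM against 103 to 128, and 1 marker passed, beside 0.213% of all genes. Other lists separated the groups too, in a comparison where 20.2% of all genes tested were without overlap. B cell markers summed to 21.8 to 50.5 RPM in KO-TRAMP against 127 to 128, and 1 of the 2 that could be tested passed, lower. Endothelial markers summed to 46.4 to 84.2 RPM against 28.3 to 29.8, and luminal secretory markers to 2497 to 2938 against 2999.9 to 3591. In A537T-TRAMP at 30 weeks the B cell sum was 39.4 to 67.7 RPM and the adipose sum 2.19 to 9.26 against 30.9 to 90.5 in WT-TRAMP. The part of these cell types in the values of Myb, Mycl, Myc and Mycn was not tested, and in bulk tissue fewer cells of a type cannot be told apart from less RNA per cell.

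Genes around MYC and MYB were read from 6 lists, all of whose members were tested: 7 further genes of the MAX network, 15 cofactors and stability regulators of MYC, 40 genes activated and 7 repressed by MYC, 15 partners and targets of MYB proteins and 15 proliferation genes. By limma and edgeR 0 of these 99 genes passed in any comparison or interaction. With an unadjusted p under 0.05 by limma there were 5 at 10 weeks and 12 at 30 weeks for KO-TRAMP, with 9 in its interaction, and 8, 6 and 7 for A537T-TRAMP. The shares of all genes were 6.64%, 13.5% and 13.1% for KO-TRAMP and 7.89%, 7.21% and 6.36% for A537T-TRAMP. The 99 genes together thus held about the background share or less. The MYB list was above it, with 3 of 15 in KO-TRAMP at 10 weeks and 5 of 15 at 30 weeks. DESeq2 passed 1 MYB-list gene in KO-TRAMP at 10 weeks (83 of 15451 genes in all), and 3 MYC-activated genes in KO-TRAMP at 30 weeks (4.76% of all genes) and 2 in its interaction (2.37%). Without library 16, limma passed 6 MYC-activated genes, 6 of the MYB list, 4 of the proliferation list, 2 of the MAX network, 2 cofactors and 1 repressed gene in KO-TRAMP at 30 weeks, beside 18.1% of all genes.

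In KO-TRAMP at 10 weeks the genes activated by MYC had a median log2 fold change of −0.045, beside −0.0060 over all genes. Of these 40 genes 1 had a limma unadjusted p under 0.05, beside 6.64% of all genes tested. That gene was Cad, the enzyme that starts pyrimidine synthesis, with 2989.9 ± 523 normalized counts against 4291 ± 1011 (log2 fold change −0.51, adjusted p 0.717). The repressed list had a median of 0.66, and its lowest p belonged to Cdkn1a, the p21 inhibitor of cyclin-dependent kinases (0.92, adjusted p 0.742). Of the MYB list, 3 of 15 had an unadjusted p under 0.05, beside the same 6.64%. Mat2a, which makes S-adenosylmethionine, had 5738 ± 579 counts against 11836 ± 3891 without overlap (−0.99, adjusted p 0.659), and Kit, a receptor tyrosine kinase, had 164 ± 75.1 against 55.0 ± 57.8 (2.02, adjusted p 0.716). The cofactors Zbtb17, which tethers MYC to repressed promoters, and Cip2a, an inhibitor of a MYC-destabilising phosphatase, had −0.31 and −0.29. Of the proliferation list 4 of 15 genes were above 0, beside 48.9% of all genes, with a median of −0.24. All 6 smooth muscle and all 7 seminal vesicle markers were above 0 in this comparison, and their part in these values was not tested.

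A537T-TRAMP at 10 weeks showed 0 of 15 proliferation genes above 0, beside 49.1% of all genes, with a median of −0.45. Among them 1, the replication helicase subunit Mcm6, had a limma unadjusted p under 0.05 (−0.58, adjusted p 0.60), beside 7.89% of all genes tested. Library 5 had the lowest proliferation sum of the group, 791 RPM, while libraries 4 and 6 had 1764 and 1065. Of the genes activated by MYC 2 of 40 had an unadjusted p under 0.05, in opposite directions, beside the same 7.89%. Nme1, a nucleoside diphosphate kinase, had 219 ± 35.2 counts against 389 ± 74.5 (−0.82, adjusted p 0.60), and Ccnd2, a D-type cyclin, 369.7 ± 104 against 208 ± 31.0 (0.79, adjusted p 0.60). Gas1, from the repressed list, had 95.3 ± 26.7 against 40.2 ± 13.1 without overlap (1.24, adjusted p 0.60), and the median of that list was 1.02. Of the MYB list Bcl2, an inhibitor of apoptosis, had 0.99 and Kit 2.02 (both adjusted p 0.60). All 6 smooth muscle, all 7 seminal vesicle and all 5 endothelial markers were above 0 here, and their part in these values was not tested.

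In KO-TRAMP at 30 weeks all 15 proliferation genes were above 0, beside 50.9% of all genes, with a median of 0.59. Of them 0 had a limma unadjusted p under 0.05, beside 13.5% of all genes. The sum of this list lay above WT-TRAMP in libraries 17 and 18 only. In library 16 it was 1258 RPM, below the 1281 to 1857 of WT-TRAMP. The genes activated by MYC had a median of 0.054, close to the 0.010 over all genes. Of these 40 genes 5 had an unadjusted p under 0.05, all higher, beside 13.5% of all genes tested. Ldha, the lactate dehydrogenase subunit of glycolysis, had 4226 ± 867 counts against 2206 ± 390.1 without overlap (0.93, adjusted p 0.244), and Hspe1, a mitochondrial chaperonin, 470.3 ± 23.3 against 332 ± 38.4 (0.50, adjusted p 0.297). Usp28, a deubiquitinase that stabilises MYC, had 239 ± 34.8 against 332 ± 32.7 without overlap (−0.48, adjusted p 0.343). Of the MYB list 5 of 15 had an unadjusted p under 0.05, beside the same 13.5%. Among them were Lin9, a subunit of the complex that MYB proteins join (0.50, adjusted p 0.338), and Kmt2a, a histone methyltransferase (−0.55, adjusted p 0.342). The MAX network list had a median of −0.29, with 1 of 7 genes above 0, which was Mlx, the partner of the MLXIP proteins (0.32, adjusted p 0.395).

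In A537T-TRAMP at 30 weeks the median was 0.15 for the genes activated by MYC, with 29 of 40 above 0, beside 50% of all genes, and the smallest p among them belonged to Rrp9, a component of the small nucleolar particle U3 (0.52, adjusted p 0.684). Usp28 was without overlap, with 224 ± 19.8 counts against 295 ± 28.2 (−0.40, adjusted p 0.666), against the same WT-TRAMP libraries as in KO-TRAMP. Men1, the menin scaffold that MYB contacts through KMT2A, had 425 ± 30.0 against 319.5 ± 11.3 (0.41, adjusted p 0.532). Mxd4, a further MAX partner, had 1784 ± 76.2 against 1537 ± 63.6 (0.21, adjusted p 0.684). Mybl2, the proliferative member of the MYB family, had 61.1 ± 38.8 against 126 ± 49.2 with overlap (−1.12, adjusted p 0.703).

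**Figure D4:**
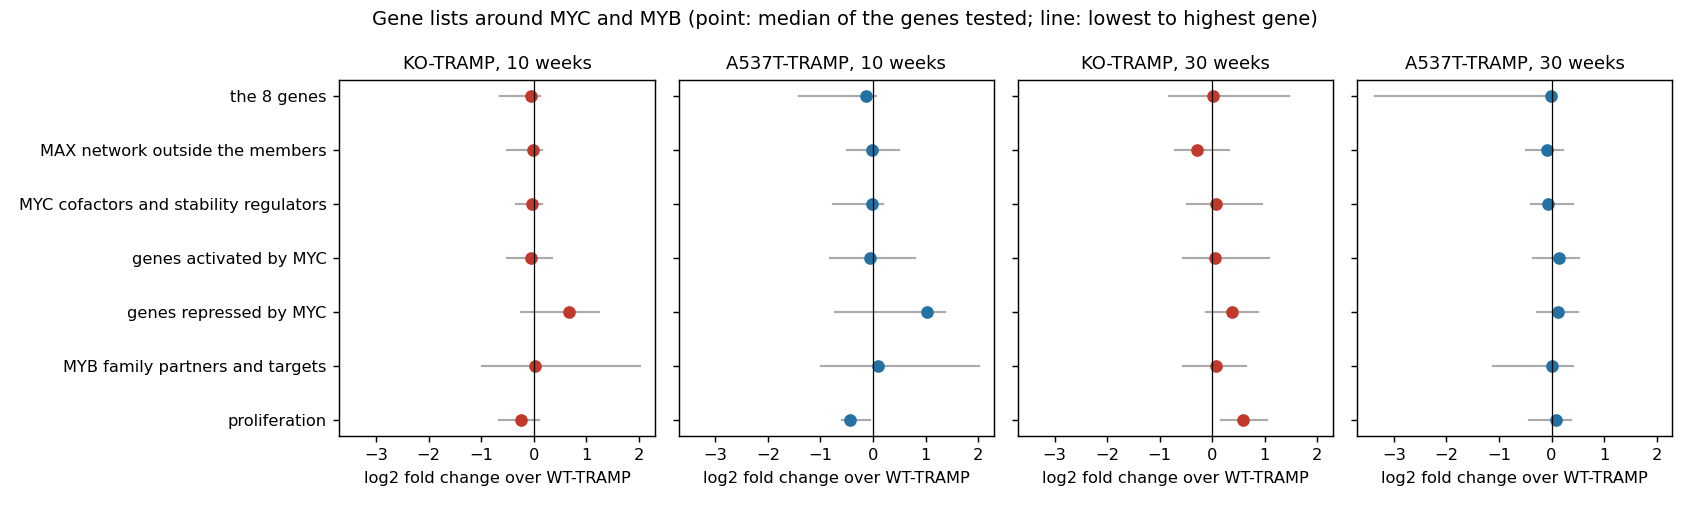
Log2 fold change over WT-TRAMP (x axis) of the 8 genes and of 6 gene lists around MYC and MYB, with 1 panel per comparison (point: median of the genes tested, line: lowest to highest gene). The proliferation list has medians of −0.24 and −0.45 at 10 weeks and of 0.59 and 0.083 at 30 weeks in KO-TRAMP and A537T-TRAMP, and no gene of these lists passed by limma.

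The genes whose levels followed each member most closely were sought among 12814 genes tested in all 4 tables, by the mean of 4 Pearson correlations of log2 values, each over the 6 libraries of a table. These are descriptions over few libraries that share line, composition and, for WT-TRAMP, the controls. Nearest to Myb were Atp6v0e2, a subunit of the vacuolar proton pump (mean r 0.916), and Rcc2, a mitotic regulator (0.912). Nearest to Mycl were Mical2 (0.866), Bik (0.866) and Btg2 (0.86), and nearest to Myc were Phlda1 (0.885), Csnk1g1 (0.847) and Usp28 (0.843). The closest gene was Agpat3 for Max (0.92), Capn5 for Mxd1 (0.84), Ap5b1 for Mxi1 (0.853) and Alkbh3 for Mybl1 (0.826). Further members of these sets were Abcc4 and Stx3 for Max, Zfp827 and Trpv3 for Mxd1, Tmem8b and Terf1 for Mxi1, and Xrcc2 and Rad54b, both of DNA repair, for Mybl1.

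The nearest protein-coding genes on each side of the 8 members were examined in the same tests. These 16 neighbours gave 47 tests in the 4 comparisons, of which 0 passed by limma and 6 had an unadjusted p under 0.05. The shares of all genes with an unadjusted p under 0.05 were 6.64% and 13.5% for KO-TRAMP at 10 and 30 weeks. For A537T-TRAMP they were 7.89% and 7.21%. The log2 fold changes of the neighbours ran from −0.75 to 1.59. Beside Myb lie Ahi1, 44506 bases away, and Hbs1l, 134995 bases away. In KO-TRAMP at 30 weeks, where Myb had a log2 fold change of 1.45, Ahi1 had 1.05 (adjusted p 0.502) and Hbs1l 0.047 (adjusted p 0.813). Beside Mycl, Mfsd2a had −0.62 (adjusted p 0.643) and Trit1 −0.13 (adjusted p 0.608) there. Trit1, which modifies tRNAs, lies 14112 bases from Mycl.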

How the data were processed

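RNA-seq of 18 libraries was analysed from 4 tables of 6 libraries. The authors trimmed reads with Trim Galore 0.4.1 and cutadapt 1.18, aligned them with STAR 2.7.3a to GRCm38.p6 masked for nuclear mitochondrial sequences, quantified genes by Salmon with strand, imported them by tximport and used DESeq2 1.26. The deposited values are normalized counts (a signal: each library's estimated reads over a single size factor, set anew in each table). Of these values 100% were whole multiples of 1 step (tolerance 0.001), which gave back whole numbers, called recovered reads here. For the same WT-TRAMP library these differed between the 2 tables of an age. In library 10 Myc had 257 and 265 and Mybl1 214 and 202. Recovered reads are therefore estimates specific to a table, not exact counts. The 4 deposited tables of the authors' comparisons were not used. Column headers carry library numbers only: columns shared by both tables of an age were taken as WT-TRAMP. No columns were left unmapped (0).

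Levels are also given as RPM and RPKM computed from recovered reads. Tests were limma 3.58.1 (eBayes with trend, R 4.3.3) on log2(normalized count + 1), for genes with a mean of at least 10, with Benjamini-Hochberg adjustment over all genes and a two-sided threshold of 0.05. That scale understates changes of low genes. Interactions used 12 libraries with separate intercepts per table. Alternatives were pseudocounts of 0.5 and 5, no filter, a mean of at least 50, TMM scaling, edgeR 4.0.16, DESeq2 1.42.0 and leaving out each library. The tests were tested on simulated data: limma recovered 96% of genes changed by a log2 of 1 among 16900 genes (KO-TRAMP, 30 weeks), but 70% among 16431 genes in the KO-TRAMP interaction and 62% among 15941 in the A537T-TRAMP one. The simulated counts had the same dispersion for every gene and no differences in tissue composition. Only genes with a mean of at least 50 were changed. These shares do not give the power in the real libraries, where the SE of Myb in KO-TRAMP at 30 weeks was 0.46. The p-values measure the spread between 3 mice per group. Members and lists were chosen with earlier results of these data known. Named list genes were, per list and comparison, up to 4 that passed, otherwise those with the 2 smallest p-values, together with the nearest neighbours, the 3 most alike genes per member and Elac2. Chga was named after its values were seen. A gene that the rule names is not reported here. Coordinates are from the GENCODE annotation of GRCm38, and promoter sequences from RefSeq (GRCm38.p6).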

Additional observations from a re-analysis of the deposited data

Results flagged for a closer look

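Myb was the 1 result flagged, because the 2 lines lay on opposite sides of the mean of the same WT-TRAMP libraries at 30 weeks. The share of all genes that meet this rule was not computed. All 3 KO-TRAMP libraries lay above the WT-TRAMP mean of their table (log2 fold change 1.45) and all 3 A537T-TRAMP libraries below that of theirs (log2 fold change −0.17). The difference between the lines was not tested, because their tables were normalized separately. The A537T-TRAMP value was near 0 (SE 0.11, adjusted p 0.788 by limma), and that line overlapped WT-TRAMP. Neither value passed by limma, and without library 17 or library 16 the KO-TRAMP value was 1.06 or 1.99.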

How the results depend on the processing

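The 8 genes gave 45 results, with 312 values under other settings and 358 with 1 library left out, of which 611 kept both direction and side of the threshold. The count of members that passed was 0 in all comparisons and interactions, and it became 1 by DESeq2 for KO-TRAMP at 30 weeks, A537T-TRAMP at 30 weeks and the KO-TRAMP interaction. With 1 library left out these counts ranged from 0 to 2 (2 without library 16), from 0 to 1 (1 without library 11) and from 0 to 2 (2 without library 16). The cause was not tested.

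Signs near 0 changed with the tool for Max in KO-TRAMP at 30 weeks (0.0053 by edgeR) and for Mxi1 in the A537T-TRAMP interaction (−0.0031 by DESeq2). With 1 library left out, values crossed 0 as follows. In KO-TRAMP at 10 weeks Myc ranged from −0.23 to 0.12, Mxd1 from −0.035 to 0.27 and Mybl1 from −0.26 to 0.19. In A537T-TRAMP at 10 weeks Myc ranged from −0.13 to 0.23, Mycl from −0.46 to 0.032, Mxd1 from −0.28 to 0.024, Mxi1 from −0.12 to 0.13 and Elac2 from −0.19 to 0.0064. In KO-TRAMP at 30 weeks Mycn ranged from −2.05 to 0.46, Max from −0.15 to 0.096, Mxd1 from −0.053 to 0.20 and Mybl1 from −0.17 to 0.34. In A537T-TRAMP at 30 weeks Mycl ranged from −0.10 to 0.18, Max from −0.062 to 0.12, Mxd1 from −0.25 to 0.19, Mybl1 from −0.32 to 0.24 and Elac2 from −0.059 to 0.11. In the KO-TRAMP interaction Max ranged from −0.073 to 0.17, Mxd1 from −0.21 to 0.099, Mybl1 from −0.14 to 0.39 and Elac2 from −0.079 to 0.10, and in the A537T-TRAMP interaction Mxd1 ranged from −0.13 to 0.31 and Mxi1 from −0.067 to 0.18.

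The number of genes passing among all genes moved most in KO-TRAMP at 30 weeks, where leaving out library 16 changed the list counts given above. Where 1 library is left out, the group of 2 is assumed to vary like its control. At 10 weeks Mycn was under the filter and had values only without a filter. No paired analysis was possible because the columns carry no replicate number. Depth limits Mycn alone, with at most 59 reads in a library, while every other member had at least 66.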
